A study of Drosophila melanogaster with 12 samples.

Results

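The comparison described here sets larvae homozygous for kdm5[L854F], a missense allele of the histone demethylase gene kdm5, against WT larvae, and covers every gene of the deposited table for these 8 samples out of 12 in the series. That table held 13758 genes, and 9105 passed the filter on low counts and were tested. Drosophila melanogaster larvae at the wandering third-instar stage, kept at 25C on standard food, gave RNA of the ventral nerve cord, from which stranded poly(A) libraries were sequenced. The WT group, with 4 samples, carried the kdm5 140 mutation and a genomic kdm5 transgene, gKDM5, that rescues it. The L854F group, also with 4 samples, was homozygous for the missense allele. The labels name neither the sex of the larvae, nor how many were pooled in a sample, nor a batch, and do not say whether the samples of a group came from separate cultures, so p-values measure the spread between these samples only. Both groups carry an altered kdm5 locus, and the effect of the allele cannot be told apart from any other difference between the stocks.

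KDM5 belongs to the JmjC family and removes methyl groups from lysine 4 of histone H3, a mark found at the start of active genes. Its human paralogs carry variants associated with intellectual disability. The larval ventral nerve cord holds motor neurons, interneurons, peptide-secreting neurons, several classes of glia and dividing neuroblasts, so its RNA is a mixture, and fewer cells of a type cannot be told apart from less RNA per cell.

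Depth was even, at 15103631 to 16850705 expected counts per sample, with 9037 to 9245 genes at 10 or more counts. Spearman correlations across genes were 0.994 to 0.996 within groups and 0.989 to 0.993 between them. Neuronal markers were abundant, with 9 of 9 tested and none called, and summed to 4380 to 5090 normalised counts for each 1000000 (CPM) in WT and 4380 to 5080 CPM in L854F. The 8 glial markers, none of them called, summed to 1620 to 1950 CPM in WT and 1360 to 1760 CPM in L854F. Of the 6 neuroblast markers mira was called lower, and the other 5 summed to 113 to 128 CPM in both groups. Fat body markers (0 of 7 called) stood at 989 to 1200 CPM in WT and 785 to 1220 CPM in L854F. Hemocyte markers (0 of 10 called) stood at 287 to 310 CPM and 292 to 330 CPM. The 15 muscle markers, 3 of 12 tested being called, summed to 95.6 to 158 CPM in WT and 65.5 to 110 CPM in L854F. Steroid-producing ring gland cells were nearly absent, with phtm, dib, spok and jhamt at 3 or fewer counts in every sample.

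The transcript of Kdm5 itself (FBgn0031759, at 2L:5989400-5999501 on the minus strand of BDGP6.54) had levels of 732, 729, 664 and 733 CPM in the WT samples, in the order of their replicate numbers as in all such lists here. In L854F its levels were 793, 786, 728 and 784 CPM. The groups overlapped only through the L854F replicate 3 sample, and replicate 3 was the lowest of each group. The log2 difference was 0.11 (SE 0.06, adjusted p 0.309, edgeR's quasi-likelihood test), and an exact two-sided permutation test gave p = 0.114, where 0.0286 was the smallest p possible. Neither test reached p under 0.05 for kdm5 mRNA, and the unadjusted p of edgeR's test was 0.0664.

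Most transcripts that differed did so by small steps. A gene was called at a Benjamini-Hochberg adjusted p under 0.05 over all tested genes, and 504 were, which is 5.54% of those tested (277 higher in L854F, or 3.04%, and 227 lower, or 2.49%). Of these, 376 (74.6%) changed by a log2 difference under 1 in size and were not switched on or off, and they are called moderate here. Moderate rises numbered 212, with a median log2 change of 0.39 and a median ratio of group means of 1.31. Moderate falls numbered 164, with a median log2 change of -0.46 and a median ratio of 0.727. A further 115 genes changed by 1 or more (55 higher, 60 lower), and 13 had 3 or fewer counts in every sample of one group (10 on in L854F, 3 off). The groups did not overlap in 208 of the moderate rises and 158 of the moderate falls, against 12.7% of all tested genes. Calls were made from these same values, so the separation follows largely from being called and is not separate support.

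**Figure D1:**
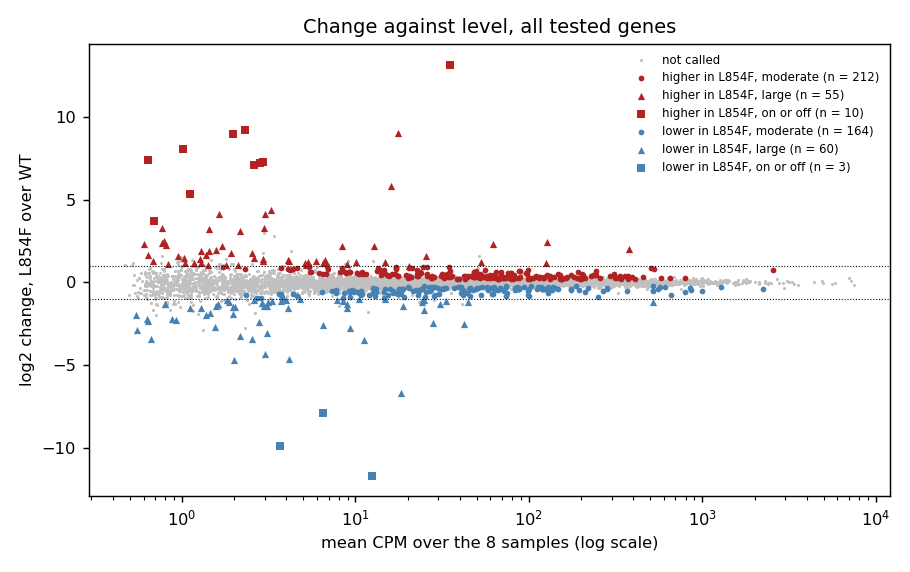
Log2 change, L854F over WT, against mean CPM over the 8 samples (log scale) for the 9105 tested genes; dotted lines mark a log2 change of 1 in either direction. The 376 moderate calls lie between these lines, while fitted changes of the 13 on or off genes depend on the prior count and are not measured sizes.

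Many moderate calls were lost when samples were left out. When each of the 8 samples was left out in turn, 247 of the 504 genes were called in all 8 fits, and 156 of the 376 moderate ones (41.5%). No called gene changed sign in any of these fits. Without L854F replicate 1, 307 genes were called, the fewest, and 208 of them were moderate.

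The size of called changes differed with level, as did the median SE, which was 0.34 on the log2 scale under 2 CPM and 0.06 at 50 to 200 CPM. Among genes at 50 to 200 mean CPM, 5.32% were called with a median size of 0.34 on the log2 scale, and 140 of 144 were moderate. Among genes under 2 CPM, 7.22% were called with a median size of 1.88, and only 1 of 50 was moderate. Rises outnumbered falls among calls at 50 to 200 CPM (91 against 53) and at 200 CPM and over (31 against 20). At 10 to 50 CPM they were even, at 81 and 86. By annotated span, there were 82 rises and 52 falls among genes with an annotated span under 2 kb, while genes of 20 to 50 kb had 11 rises and 24 falls. Noncoding RNA genes were called in 25 of 231 cases (10.8%) and protein-coding genes in 445 of 8703 (5.11%).

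Moderate genes were ranked only at 10 CPM or more, without overlap and with a name other than a CG, CR or BGI number. By size relative to their error, the leading rises among these included the calcium-activated chloride channel gene subdued and the small heat shock genes Hsp67Ba and Hsp23. Also leading were the midkine-like growth factor gene miple1, the Hedgehog acyltransferase gene rasp, the initiator caspase gene Dronc, scf and the neuropeptide gene Pdf. miple1 (FBgn0027111, 3L:267299-270336) stood at 385, 396, 382 and 354 CPM in WT and at 625, 611, 725 and 748 CPM in L854F. Every L854F sample was above every WT sample, and the log2 change was 0.84 (SE 0.07, adjusted p 6.19e-05). subdued (FBgn0038721, 3R:19633418-19642722) stood at 22, 23.5, 26.6 and 23.3 CPM in WT and at 47.0, 44.0, 43.4 and 48.7 CPM in L854F. The groups were again separate, with a log2 change of 0.94 (SE 0.07, adjusted p 2.24e-05). Dronc rose by 0.65, rasp by 0.85 and scf by 0.52 on the log2 scale (adjusted p 0.000441, 0.000145 and 6.19e-05).

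The leading moderate falls in the same ranking were pod1, Asator, spartin, MCTS1, rtet, Hsdl2, MsrA and SPARC. pod1 (FBgn0029903, X:6803684-6813830), a coronin that links actin and microtubules in growing axons, stood at 931, 970, 935 and 928 CPM in WT. In L854F it stood at 675, 624, 616 and 650 CPM, all below WT, a log2 change of -0.55 (SE 0.05, adjusted p 8.67e-05). Asator, a tau tubulin kinase, fell from 825 ± 61.6 to 490 ± 42.9 CPM (SD, n = 4; log2 change -0.75, adjusted p 0.000132). spartin, which works in endosomal traffic at the synapse, had a log2 change of -0.85, and the translation reinitiation factor gene MCTS1 of -0.82 (adjusted p 4.69e-05 and 0.000115). The log2 changes of rtet, Hsdl2, MsrA and SPARC were -0.97, -0.67, -0.76 and -0.83. All 16 of these leading genes were called in each of the 8 leave-one-out fits. They lie on arms 3L and 3R, the X and chromosome 4. For them too, the allele cannot be told apart from other differences between the stocks. Exons of subdued, Hsp67Ba, rasp and Asator overlap a gene on the opposite strand, and the strand setting of the counting is not given in the sources used here, so their reads are uncertain to that extent.

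**Figure D2:**
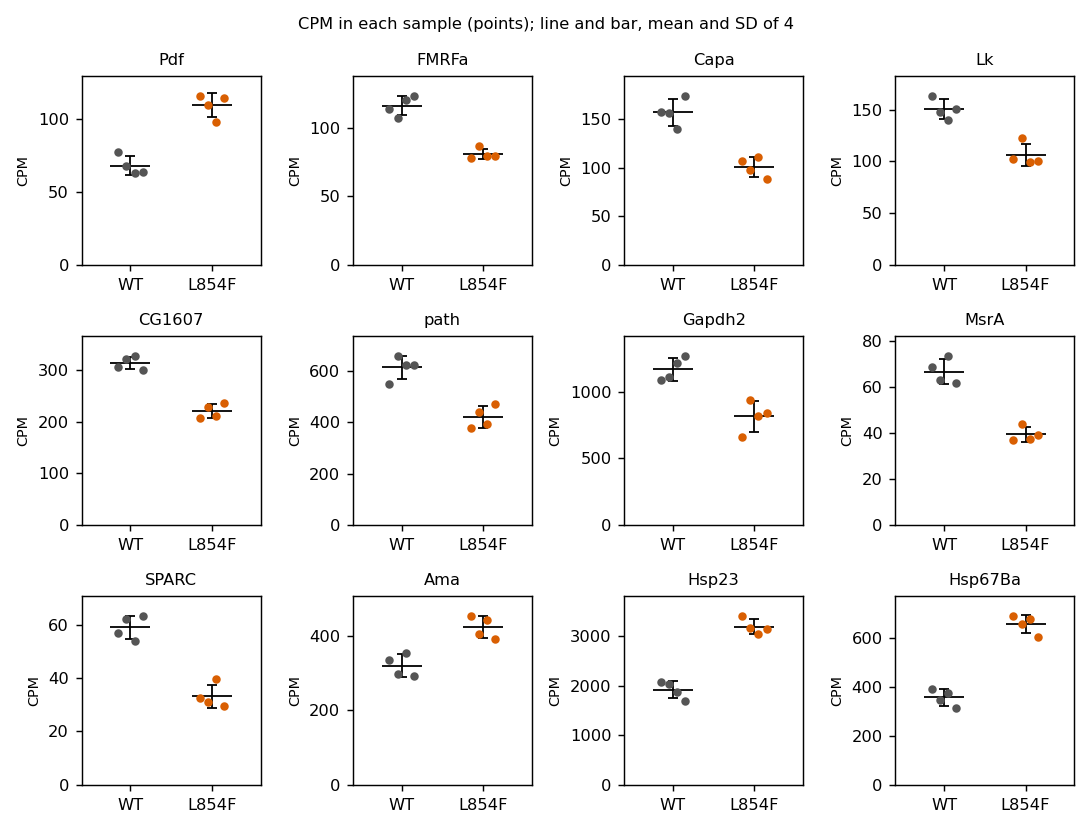
CPM in each of the 4 WT and 4 L854F samples (points) for 12 genes, with the mean and SD; every axis starts at 0. In each of the 12 panels the 4 L854F samples lie wholly above or wholly below the 4 WT samples. All 12 were picked from the called genes, some of them for having no overlap, so this separation follows from the choice.

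Among genes with larger changes that were measured in every sample, CG11700 stood at 32.9 to 45.2 CPM in WT and 206 to 222 CPM in L854F, a log2 change of 2.46 (SE 0.08, adjusted p 2.96e-08). It is a ubiquitin-repeat gene next to Ubi-p5E, which had a log2 difference of -0.13 (adjusted p 0.311), and reads may be divided between them. CG7564 rose from 149 ± 8.55 to 610 ± 97.8 CPM, and Cep290, a component of the ciliary base, from 4.50 ± 0.931 to 21 ± 4.35 CPM. Exons of CG7564 overlap a transposon copy on the opposite strand, so its reads are uncertain to that extent. Rtel1, a DNA helicase gene, fell from 43.4 ± 1.19 to 17.9 ± 1.5 CPM (log2 change -1.28, adjusted p 1.15e-06). pst, an antiviral resistance gene, fell from 72.3 ± 9.31 to 12.7 ± 2.71 CPM. BGI_novel_G000097, without a symbol, had a log2 change of 2.32, lncRNA:CR45242 of -3.48 and CG1299 of -2.48.

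Genes were grouped by function in 34 lists. Neuronal lists held 380 tested genes of 416 named, of which 20 were called (5.26%, 10 in each direction), close to the 5.54% of all tested genes. Metabolic lists had 23 of 246 called (9.35%, 9 higher and 14 lower), and the glial list 7 of 40 (17.5%, 1 higher and 6 lower). Chromatin lists had 3 of 132 called (2.27%, all lower). The median size of the log2 difference, called or not, was 0.05 for chromatin genes, 0.08 for neuronal genes, 0.12 for metabolic genes and 0.15 for glial genes, against 0.09 for all tested genes. No test compared these shares with each other.

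**Figure D3:**
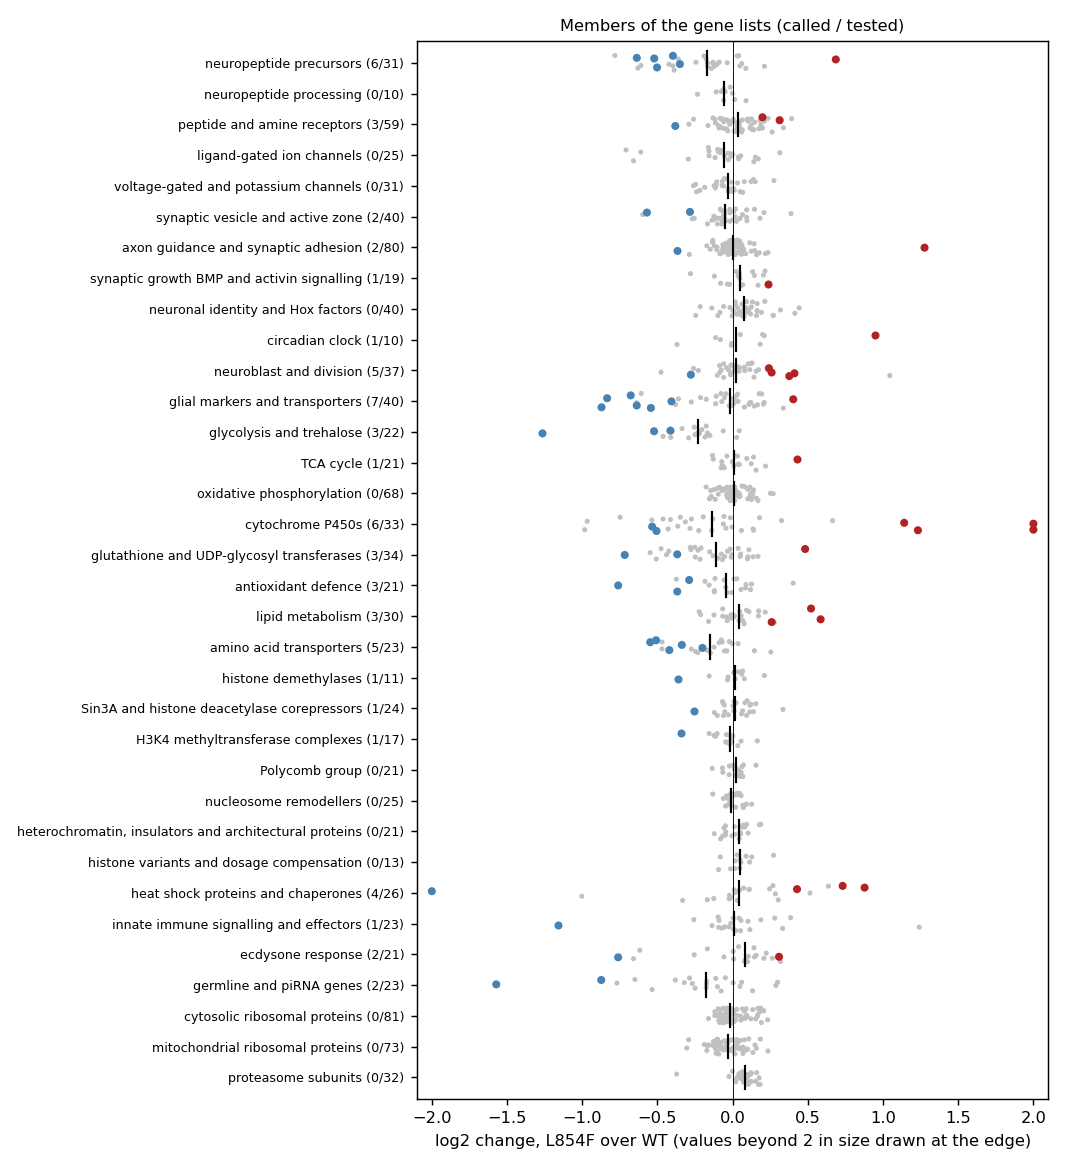
Log2 change, L854F over WT, of every tested member of the 34 lists, with called members in red (higher) or blue (lower), the others in grey and the list median as a black bar; values beyond 2 in size are drawn at the edge. Neuropeptide, glycolysis and amino acid transporter genes lie mostly below 0, while channel, ribosomal, respiratory and chromatin lists stay close to it.

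Most tested neuropeptide genes lay below 0, while Pdf was called higher. Among 44 listed genes with counts, 31 were tested and 6 were called (19.4%, against 5.54% of all tested genes). Pdf, whose peptide couples clock neurons and is also made in the posterior nerve cord, rose, while FMRFa, Capa, Lk, Orcokinin and CCAP fell. Pdf (FBgn0023178, 3R:26455462-26456141) stood at 77.7, 68.0, 63.2 and 63.9 CPM in WT and at 116, 110, 98.0 and 115 CPM in L854F. The lowest L854F sample was above the highest WT sample, and the log2 change was 0.69 (SE 0.08, adjusted p 0.000308).

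FMRFa encodes peptides released from a few thoracic neurosecretory cells (FBgn0000715, 2R:9906294-9910457), and its values were 114, 107, 120 and 123 CPM in WT against 78.2, 86.7, 79.2 and 79.7 CPM in L854F. The samples did not overlap, and the log2 change was -0.52 (SE 0.06, adjusted p 0.000272). Capa, which encodes diuretic peptides of abdominal neurons, stood at 158, 156, 140 and 173 CPM in WT and at 106, 97.8, 111 and 88.0 CPM in L854F. All L854F samples were lower, with a log2 change of -0.64 (SE 0.08, adjusted p 0.00086). Lk, the diuretic peptide leucokinin, stood at 163, 148, 140 and 151 CPM in WT and at 103, 122, 99.3 and 101 CPM in L854F. It fell by 0.50 on the log2 scale (SE 0.07, adjusted p 0.00204), with no overlap.

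Orcokinin had a log2 change of -0.40 (adjusted p 0.00587) and CCAP, a peptide of moulting behaviour, of -0.35 (adjusted p 0.0153). CCAP was lost in 2 of 8 leave-one-out fits (0.0523 without L854F replicate 1), while the other 5 were called in all. Among all 31 tested peptide genes 24 lay below 0 and 7 above, with a median of -0.17 against 0.0013 for all tested genes. The 10 enzymes that process neuropeptides included no call, with a median of -0.055. Lk and CCAP overlap genes on the opposite strand.

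The receptors of peptides and amines gave 3 calls among 59 tested (5.08%, close to the 5.54% of all tested genes). The octopamine receptor gene Octalpha2R (log2 change 0.31, adjusted p 0.0178) and the tachykinin receptor gene TkR99D (0.20, adjusted p 0.0446) were higher, and the serotonin receptor gene 5-HT2B was lower (-0.38, adjusted p 0.0421). None of the 3 held in all leave-one-out fits. TkR99D was lost in 8 of 8 fits (up to 0.10, without WT replicate 4), 5-HT2B in 6 of 8, with the highest adjusted p, 0.118, without L854F replicate 1. Octalpha2R was lost without L854F replicate 1 or 4 or WT replicate 3 or 4, at up to 0.0608.

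Among the 40 synaptic vesicle and active zone genes Trhn and Ddc were called, a share of 5.0% against 5.54% of all tested genes. Trhn, the neuronal tryptophan hydroxylase, stood at 12.6 to 17.6 CPM in WT and 9.22 to 11.3 CPM in L854F, a log2 change of -0.57 (adjusted p 0.0169, or 0.0537 without L854F replicate 1). Ddc, the decarboxylase of the same pathway and of dopamine synthesis, had a log2 change of -0.28 (adjusted p 0.0319) and was lost in 5 of 8 leave-one-out fits, with an adjusted p of 0.0930 without WT replicate 2. The tyrosine hydroxylase gene ple of dopamine synthesis, at 3.37 to 12.1 CPM in WT and 3.18 to 7.13 CPM in L854F, had a log2 difference of -0.60 and was not called (adjusted p 0.410). Exons of Trhn and Ddc overlap a gene on the other strand. None of 25 ligand-gated channel genes and none of 31 voltage-gated and potassium channel genes was called by edgeR, although 3 of each had an unadjusted p under 0.05.

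Among 80 guidance and adhesion genes, the neuroligin gene Nlg1 and dpr18, of an immunoglobulin surface family, were called. This share of 2.5% was below the 5.54% of all tested genes. Nlg1 stood at 3.09 to 3.75 CPM in WT and 5.92 to 12.5 CPM in L854F, a log2 change of 1.28 (SE 0.22, adjusted p 0.00651) at a low level, and its exons overlap a transposon copy, invader3, on the same strand. dpr18 had a log2 change of -0.37 (adjusted p 0.0182), lost without WT replicate 1 or 2 (up to 0.0554). The BMP type II receptor gene wit, needed for synaptic growth at the neuromuscular junction, was the single call of 19 signalling genes (5.26%). Its log2 change was 0.24 (adjusted p 0.0250), and it was lost in 6 of 8 leave-one-out fits, with 0.0785 without WT replicate 2. Of 10 clock genes only cry was called, with means of 1.17 CPM in WT and 2.28 CPM in L854F. It was lost in 7 of 8 fits (up to 0.0915, without WT replicate 2) and shares exon positions with vib and, on its own strand, lncRNA:CR46393.

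The 40 tested genes of neuronal identity, Hox genes among them, had no call by edgeR, with 6 at an unadjusted p under 0.05, a median of 0.077 and 32 of 40 above 0. Neuroblast and division genes had 5 calls among 37 (13.5%, against 5.54% of all tested genes). The numb partner pon (0.41), the cyclin CycB3 (0.24), the spindle midzone gene feo (0.38) and the anillin gene scra (0.26) were higher, and mira, the carrier of fate determinants in neuroblasts, was lower (-0.28). mira stood at 130 to 152 CPM in WT and 108 to 124 CPM in L854F, while the other 5 neuroblast markers had the same range of sums in both groups, as given above. pon held in all leave-one-out fits (adjusted p 0.0116), and the other 4 did not. CycB3 was lost in 7 of 8 (up to 0.0966, without WT replicate 2) and feo in 6 (up to 0.0851, without L854F replicate 3). scra was lost in 5 (up to 0.0947, without L854F replicate 1), and mira in 5 (up to 0.0602, without WT replicate 4).

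Of 40 tested genes of glial markers and transporters 7 were called (17.5%, against 5.54% of all tested genes). Ama, a secreted adhesion protein, rose, and SPARC, Tsf1, Rh50, vkg, Col4a1 and Mdr65 fell. SPARC (FBgn0026562, 3R:26869238-26871995), which binds collagen IV, stood at 56.9, 62.0, 53.9 and 63.2 CPM in WT and at 32.4, 31.1, 39.5 and 29.5 CPM in L854F. No sample overlapped, and the log2 change was -0.83 (SE 0.09, adjusted p 0.00026). The collagen IV genes vkg and Col4a1 lie next to each other on 2L and had log2 changes of -0.68 and -0.54 (adjusted p 0.0368 and 0.0236).

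Tsf1, a transferrin that carries iron, stood at 247, 312, 334 and 399 CPM in WT and at 131, 198, 241 and 137 CPM in L854F. All L854F samples were lower, but the spread was wide, with a log2 change of -0.87 (SE 0.19, adjusted p 0.0233). Rh50, an ammonium transporter, had a log2 change of -0.64 and Mdr65, a drug pump of the blood-brain barrier, of -0.41 (adjusted p 0.0296 and 0.0288), with overlapping groups for Mdr65. Ama stood at 336, 297, 355 and 294 CPM in WT and at 453, 406, 442 and 393 CPM in L854F, a separate and higher range. Its log2 change was 0.40 (SE 0.07, adjusted p 0.00836), and its exons overlap lncRNA:CR45593 on the opposite strand.

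Only SPARC and Ama of these 7 held in all leave-one-out fits. Tsf1 was lost without L854F replicate 1 or 4 or WT replicate 3 or 4 (up to 0.0640), and Col4a1 without L854F replicate 1 or 3 or WT replicate 3 or 4 (up to 0.0760). vkg, Rh50 and Mdr65 were lost in 5, 5 and 6 of 8 fits, with 0.110, 0.0901 and 0.0802 without L854F replicate 1. Across the whole list of 40 genes the median was -0.014, with 17 above 0 and 23 below. The nuclear glial marker repo was not called (-0.11, adjusted p 0.396), nor was the astrocyte gene alrm (0.18, adjusted p 0.492). Among the 8 glial markers 3 lay above 0 and 5 below, from -0.638 to 0.177, with a median of -0.066. Of these 8, 2 had an unadjusted p under 0.05 by edgeR. SPARC and the collagen IV genes are also made by fat body and hemocytes, whose markers overlapped between the groups as given above, and their part in the result was not tested.

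Of 22 tested glycolysis and trehalose genes 20 were below 0 and the median was -0.23. Called were 3 (13.6%), all lower, against 2.49% of all tested genes called lower. Gapdh2 (FBgn0001092, X:15868145-15869661), a glycolytic dehydrogenase, stood at 1087, 1111, 1214 and 1269 CPM in WT and at 659, 942, 819 and 839 CPM in L854F. L854F replicate 1 was the lowest sample and no groups overlapped, with a log2 change of -0.52 (SE 0.10, adjusted p 0.0099). Its paralog Gapdh1, a similar sequence that may share reads, had a log2 difference of -0.22 (adjusted p 0.335).

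UGP, which makes UDP-glucose for glycogen and trehalose, had a log2 change of -0.41 (adjusted p 0.0322), lost in 5 of 8 leave-one-out fits, with 0.0805 without WT replicate 4. Pepck1, an enzyme of gluconeogenesis, had a log2 change of -1.26 (adjusted p 0.0311) at a low level. Its counts equal those of the overlapping CG45087, and it was lost in 6 of 8 fits (0.0950 without L854F replicate 1). The summed level of the glycolysis and trehalose list was 6353, 6481, 6530 and 7977 CPM in WT and 4671, 6245, 5339 and 5790 CPM in L854F. WT replicate 4 was highest and L854F replicate 1 lowest, the same samples that were highest (1950 CPM) and lowest (1360 CPM) in summed glial markers, whose part in the result was not tested.

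**Figure D4:**
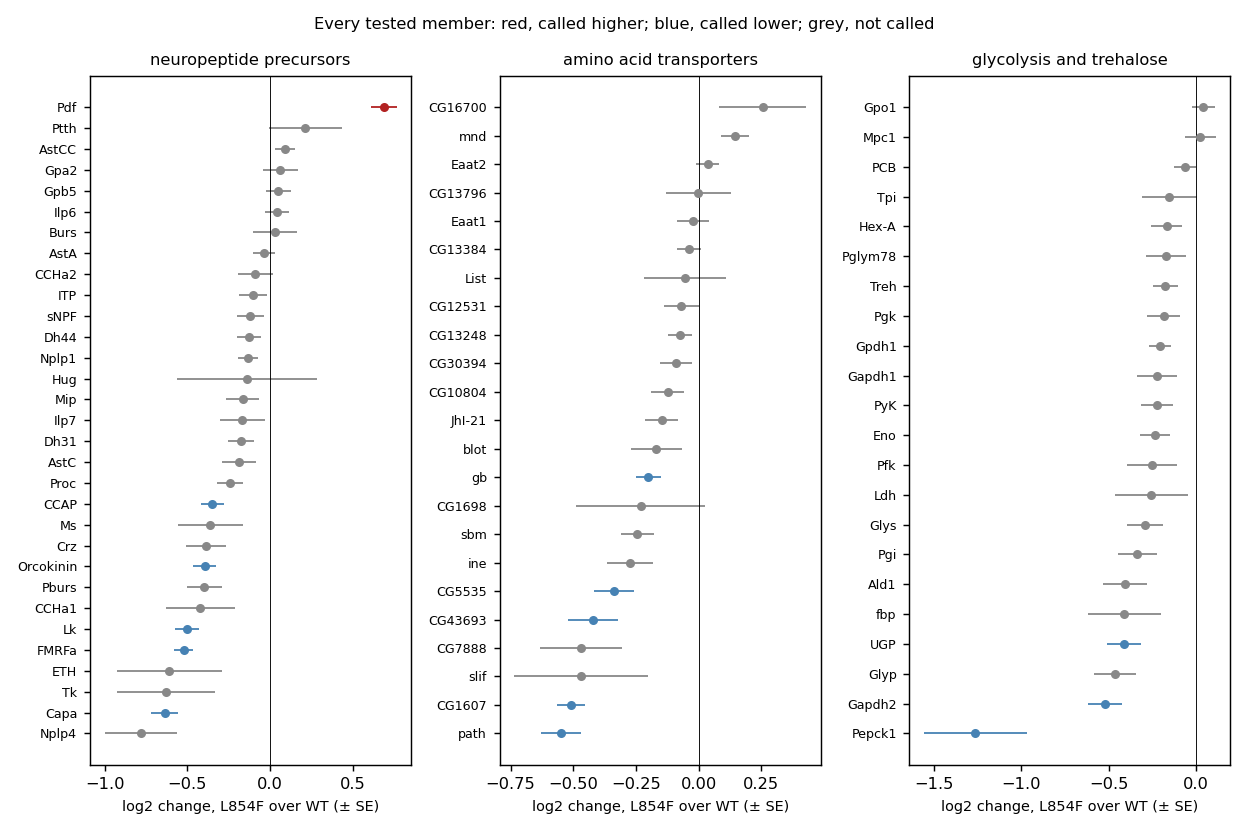
Log2 change with its SE (bars) for every tested member of the neuropeptide, amino acid transporter and glycolysis lists. Below 0 lie 24 of 31, 20 of 23 and 20 of 22 genes, and red or blue marks the 6, 5 and 3 that were called.

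Amino acid transporter genes gave 5 calls among 23 (21.7%), all lower, against 2.49% of all tested genes called lower. Below 0 lay 20 of 23, with a median of -0.15. path, an amino acid carrier required for growth of large dendrites (FBgn0036007, 3L:9494555-9505328), stood at 549, 659, 626 and 624 CPM in WT and at 379, 439, 392 and 471 CPM in L854F. The groups were separate and the log2 change was -0.55 (SE 0.08, adjusted p 0.00204). CG1607 (FBgn0039844, 3R:31382109-31391893), a light chain of the heteromeric exchangers, stood at 306, 321, 327 and 301 CPM in WT and at 207, 229, 210 and 235 CPM in L854F. It fell without overlap by 0.51 on the log2 scale (SE 0.06, adjusted p 0.000267).

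CG43693 had a log2 change of -0.42, CG5535 of -0.34 and gb, a glial cystine/glutamate exchanger, of -0.20 (adjusted p 0.0342, 0.0331 and 0.0351), and these 3 did not hold in all leave-one-out fits. CG5535 and CG43693 were each lost in 5 of 8, with 0.0950 and 0.10 without L854F replicate 1, and gb in 6, with 0.112 without WT replicate 2. CD98hc, the heavy chain that such light chains bind, was outside the list and was looked up after the values were seen. It had a log2 change of -0.24 (adjusted p 0.0124). The transporter mnd of the same family stood on the other side, at 0.14 (adjusted p 0.176).

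Mitochondrial energy genes gave little. None of 68 oxidative phosphorylation genes was called by edgeR, 1 had an unadjusted p under 0.05, and the median was 0.0084. Of 21 TCA cycle genes the citrate synthase kdn was called higher, a share of 4.76%. It stood at 124 to 178 CPM in WT and 189 to 219 CPM in L854F (log2 change 0.43, adjusted p 0.0218). It was lost without replicate 1 or 2 of either group, at up to 0.0672. Lipid metabolism had 3 calls among 30 tested genes, all higher, against 3.04% of all tested genes called higher. The lipase gene Lip4 rose from 80.6 ± 8.31 to 116 ± 3.34 CPM (log2 change 0.52, adjusted p 0.00129) and the sterol-binding gene Npc2a from 63.5 ± 7.0 to 95.3 ± 13.7 CPM (0.59, adjusted p 0.00731). The lipophorin receptor gene LpR1 (0.26, adjusted p 0.0399) was lost in 7 of 8 leave-one-out fits (up to 0.114, without L854F replicate 1).

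Antioxidant genes fell in 3 of 21 cases (14.3%, against 2.49% of all tested genes called lower), all held in every leave-one-out fit. MsrA (FBgn0000565, 3L:15511052-15513202), which repairs oxidised methionine, stood at 68.6, 63.0, 73.5 and 61.7 CPM in WT and at 37.1, 43.9, 37.3 and 39.2 CPM in L854F. No sample overlapped, and the log2 change was -0.76 (SE 0.08, adjusted p 0.000123). The glutathione transferase gene GstD1 fell by 0.37 (adjusted p 0.00642) and the ferritin light chain gene Fer2LCH by 0.29 on the log2 scale (adjusted p 0.0117). Fer2LCH overlaps Fer1HCH, the heavy chain gene on the opposite strand, which had a log2 difference of -0.16 (adjusted p 0.141).

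Cytochrome P450 genes, of which 33 of 79 in the table were tested, moved both ways with 4 higher and 2 lower. These 6 calls were 18.2% of those tested, against 5.54% of all tested genes. Cyp12a4, whose exons overlap a Bari1 transposon copy on the same strand, rose (log2 change 1.23, adjusted p 0.00831), as did Cyp6t1 (lost in 8 of 8 leave-one-out fits, up to 0.0892 without WT replicate 1) and the near-identical pair Cyp12d1-p and Cyp12d1-d, whose reads cannot be assigned with certainty. Cyp9c1 had a log2 change of -0.51 (adjusted p 0.0091) and Cyp4d2 of -0.54 (adjusted p 0.0441, lost in 7 of 8, up to 0.110 without L854F replicate 1). Among 34 glutathione and UDP-glycosyl transferases, GstT3 was higher and GstD1 and GstO1 lower, together 8.82% of those tested. GstT3 was lost in 6 of 8 fits (up to 0.0763, without WT replicate 4) and GstO1 in 7 (up to 0.123, without L854F replicate 1).

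Chromatin genes, the class to which kdm5 belongs, had the smallest median size of log2 difference of the classes, at 0.05. Levels were not matched between classes. Over all tested genes this median ran from 0.38 under 2 CPM to 0.06 at 200 CPM and over. Pa1, a subunit of the Trr histone H3 lysine 4 methyltransferase complex, stood at 57.9, 59.2, 55.0 and 54.1 CPM in WT and at 44.4, 44.6, 44.8 and 44.7 CPM in L854F. The L854F samples were almost level and all below WT, with a log2 change of -0.34 (SE 0.05, adjusted p 0.00236), called in all leave-one-out fits. Sirt2, a deacetylase, had a log2 change of -0.26 (adjusted p 0.0214), lost in 5 of 8 fits with 0.0608 without WT replicate 4. JMJD7, of the JmjC family, had one of -0.36 (adjusted p 0.0462) and was lost in 8 of 8 (up to 0.129, without WT replicate 3). The methyltransferases themselves gave -0.0027 for Set1, -0.041 for trr and -0.047 for trx (adjusted p 0.991, 0.817 and 0.710). Of KDM5's corepressor partners, Sin3A gave -0.052 and HDAC1 0.0030 (adjusted p 0.623 and 0.985). No member of the Polycomb (21), nucleosome remodeller (25), heterochromatin and insulator (21) or histone variant and dosage compensation (13) lists was called by edgeR, with 1 in each at an unadjusted p under 0.05.

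Small heat shock genes of a single locus on 3L, chaperones that hold unfolded proteins, gave 3 of the 4 calls among 26 heat shock and chaperone genes. Those 4 calls were 15.4% of the list, against 5.54% of all tested genes. Hsp23 (FBgn0001224, 3L:9381882-9382765) stood at 2089, 2034, 1871 and 1704 CPM in WT and at 3412, 3162, 3056 and 3149 CPM in L854F. Every L854F sample was higher, and the log2 change was 0.73 (SE 0.08, adjusted p 0.000159). Hsp67Ba (FBgn0001227, 3L:9377802-9379534) stood at 392, 348, 374 and 314 CPM in WT and at 688, 656, 675 and 603 CPM in L854F. It rose without overlap by 0.88 on the log2 scale (SE 0.07, adjusted p 4.45e-05).

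Hsp67Bc of the same locus had a log2 change of 0.43 (adjusted p 0.0218), lost without L854F replicate 1 or 3 or WT replicate 3, at up to 0.0611. Not every gene between them was called. Hsp22 and Hsp26 gave 0.64 and 0.51 (adjusted p 0.201 and 0.123), with WT replicates 3 and 4 lowest, and Hsp27 gave -0.17 (adjusted p 0.379). The inducible Hsp68 and the cytosolic Hsp83 gave 0.28 and 0.073 (adjusted p 0.690 and 0.80). Hsc70-1 was the remaining call and was off in L854F, with 3.98, 20.3, 3.43 and 24 CPM in WT.

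Ecdysone response genes had 2 calls among 21 (9.52%, against 5.54% of all tested genes). These were the nuclear receptor gene Eip78C (0.31, adjusted p 0.0437, lost in 6 of 8 leave-one-out fits, up to 0.120 without L854F replicate 1) and MsrA, which is also on the antioxidant list. Of 23 germline and piRNA genes krimp and del (8.7%), both of the piRNA pathway, were lower. Their log2 changes were -1.57 and -0.87 (adjusted p 0.00142 and 0.00377), with means of 2.06 and 6.61 CPM in L854F. Exons of del overlap pths on the opposite strand. PGRP-SA, a sensor of bacterial peptidoglycan, was the single immune call of 23, a share of 4.35%. It had a log2 change of -1.16 (adjusted p 0.0441) and was lost in 7 of 8 fits (up to 0.122 without L854F replicate 1). Of 12 tested muscle markers 3 were called (25.0%, against 5.54% of all tested genes). In this list 10 lay below 0 and 2 above, with a median of -0.70. Mlc2 (-2.59, adjusted p 0.00174) and TpnC47D (-1.18, adjusted p 0.0214) were lower and Mf (1.08, adjusted p 0.0441) higher. Without these 3 the muscle markers summed to 82.6 to 133 CPM in WT and 58.0 to 95.7 CPM in L854F. Only Mlc2 of these 3 held in all leave-one-out fits, while TpnC47D was lost in 6 (up to 0.0640, without WT replicate 1) and Mf in 7 (up to 0.112, without WT replicate 2). Of the midgut and the eye markers tested, 3 in each list, LManII (-0.40, adjusted p 0.0164) and norpA (-0.28, adjusted p 0.0138) were lower, and LManII was lost in 2 fits (up to 0.0545, without L854F replicate 1). Without LManII the midgut markers summed to 3.12 to 3.75 CPM in WT and 2.45 to 3.54 CPM in L854F, and without norpA the eye markers summed to 2.91 to 3.75 CPM and 2.78 to 4.46 CPM.

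No cytosolic ribosomal protein gene (of 81), mitochondrial ribosomal protein gene (of 73) or proteasome gene (of 32) was called by edgeR. Unadjusted p-values under 0.05 were reached by 1, 4 and 8 of them. Proteasome subunits lay above 0 in 29 of 32 cases, with a median of 0.085, and the medians of the ribosomal lists were -0.017 and -0.030. The called genes with the next highest mean CPM per kilobase after Hsp23 were CG9686, CG15353 and Gapdh2. CG9686 gave 0.24 (adjusted p 0.0345, lost in 7 of 8 leave-one-out fits, up to 0.0920 without L854F replicate 1). CG15353 gave -0.54 (adjusted p 0.00204) and overlaps asRNA:CR45712 on the opposite strand.

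The called genes were spread unevenly over the chromosomes. On chromosome 2, where kdm5 lies, 83 of 3382 tested genes were called (2.45%), against 283 of 3950 on chromosome 3 (7.16%) and 94 of 1514 on the X (6.21%). Each arm of chromosome 2 had a low share, at 2.84% for 2L and 2.11% for 2R, and 3L had 8.19% and 3R 6.35%. The small chromosome 4 had 6 of 87 called (6.90%). The median size of the log2 difference over all tested genes, called or not, was 0.077 on chromosome 2, 0.094 on chromosome 3 and 0.088 on the X.

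**Figure D5:**
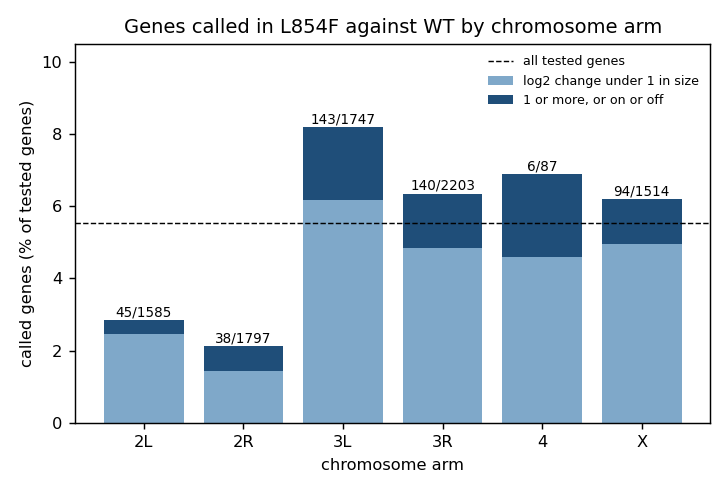
Share of tested genes called in L854F against WT on each chromosome arm, split by the size of the log2 change, with called and tested genes above each bar; the dashed line is the 5.54% of all tested genes. Both arms of chromosome 2 lie below the line, at 2.84% and 2.11%, and those of the X and of chromosomes 3 and 4 lie above it.

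The lower share on chromosome 2 was seen at every level of expression. At 10 to 50 CPM it was 1.90%, against 6.77% on chromosome 3 and 6.52% on the X. At 200 CPM and over it was 1.96%, against 5.96% and 5.29%. Median levels were alike, at 37.8 CPM on chromosome 2 and 36.7 CPM on chromosome 3. In the leave-one-out fits the share ranged from 1.26% to 2.37% on chromosome 2 and from 4.08% to 5.47% on the X and chromosome 3 together, and it was lower on chromosome 2 in each of the 8. This comparison of chromosomes was chosen after the values were seen, and no test was made of it, since genes of a chromosome are not independent replicates. The labels do not say where the gKDM5 transgene was inserted or whether the stocks share the X and chromosome 3, so the allele and the origin of these chromosomes cannot be told apart.

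Genes around kdm5 itself were called at shares above that of chromosome 2, from small counts. Within 0.1 Mb of its ends 33 genes were tested and 2 were called (6.06%), CG9150 and Pfdn1, both higher and next to each other (log2 change of Pfdn1 0.29, adjusted p 0.0331, lost in 6 of 8 leave-one-out fits, up to 0.0930 without WT replicate 2). Within 1 Mb 6 of 181 were called (3.31%), against 2.45% of chromosome 2 and 5.54% of all tested genes.

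Called genes also lay beside each other. Of 8936 pairs of consecutive tested genes, both were called in 62, with the same direction in 39 (21 higher, 18 lower) and opposite directions in 23. A neighbour of a called gene was called in 13.2% of cases, and a neighbour of an uncalled gene in 4.79%. Exons overlapped in 6 of the 39 same-direction pairs, where reads cannot be assigned with certainty, and not in the other 33. Without WT replicate 4 the same-direction pairs numbered 16.

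Runs of 3 consecutive genes called in the same direction occurred at 4 places. On 3L (3L:4087581-4107116) CG14989, CG14995 and Fit1, a kindlin that links integrins to the cytoskeleton, were lower by 0.29, 0.27 and 0.32 in size on the log2 scale. On 3R (3R:19135158-19153686) Cyp12a4, Ppcs and CG5835 were higher, with log2 changes of 1.23, 0.32 and 1.199. Farther along 3R (3R:30387804-30422971) Fer2LCH, CG2217 and CG42740 were lower, and the last 2 share exons with each other and with a baggins transposon copy. Each of these 3 runs holds calls lost in most leave-one-out fits, while the log2 changes kept their sign. CG14995 was lost in 6 of 8 (up to 0.0943, without WT replicate 2), Ppcs in 7 (up to 0.131, without L854F replicate 1), CG5835 in 6 (up to 0.0803, without WT replicate 4) and CG2217 in 5 (up to 0.0904, without WT replicate 1).

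The fourth run lay on the Y chromosome and held Su(Ste):CR42422, Su(Ste):CR42407 and Su(Ste):CR41533, repeats that silence Stellate. Their copies are almost the same in sequence, and reads cannot be assigned to one of them with certainty. Their means were 16.1, 1.22 and 7.97 CPM in WT and 2.36, 0.110 and 0.304 CPM in L854F. In all, 4 of the 5 tested Y genes were lower. The dosage compensation RNA lncRNA:roX1, made in males, stood at 732 CPM in WT and 779 CPM in L854F on average (log2 difference 0.09, adjusted p 0.775), and the part of the sex ratio in the Y result was not tested.

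Neighbouring pairs included genes of related function. The midkine-like genes miple1 and miple2 lie 863 bases apart and both rose, miple2 from 3.03 to 13.7 CPM (log2 change 2.17, adjusted p 0.00823). The thiol reductase genes GILT3 and GILT2 rose by 0.39 and 0.59 on the log2 scale (adjusted p 0.0287 and 0.00129; GILT3 was lost in 5 of 8 leave-one-out fits, up to 0.0763 without WT replicate 4), and CG6231 (0.61, adjusted p 0.00152) rose beside subdued. GatB, of mitochondrial glutaminyl-tRNA synthesis, and Tsc1, an inhibitor of TORC1, start 51 bases apart and were lower (-0.51 and -0.24, adjusted p 0.00204 and 0.0265), with Tsc1 lost in 5 of 8 fits (up to 0.0759, without L854F replicate 1). CG34347 fell beside CG1607 (-0.41, adjusted p 0.00114), and CG11349 rose beside CG12607, which was off in WT. The pairs miple, GILT, subdued and GatB were picked from the list of 39 after their values were seen.

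Several stretches of 1 Mb held many calls. Those given here were picked after the values of all stretches were seen, and no test was made of them. Shares over whole arms were 8.19% for 3L, 6.35% for 3R and 6.21% for the X, and 5.54% over all tested genes. Other stretches came close, such as 3L from 7 to 8 Mb (17.1%) and 3R from 26 to 27 Mb (16.9%). On 3L from 4 to 5 Mb 17 of 76 tested genes were called (22.4%), among them the run with Fit1, CG1299 and the pair CG12607 and CG11349. On 3R from 19 to 20 Mb 13 of 59 were called (22%), including the Cyp12a4 run and subdued. On 3R from 30 to 31 Mb 13 of 65 were called, 10 of them lower. On the X from 6 to 7 Mb 16 of 90 were called (17.8%), among them CG11700, MCTS1, pod1 and kdn.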

How the data were processed

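Poly(A) RNA was measured in 4 WT and 4 L854F samples. The deposited table holds expected counts from RSEM, 1 value for each gene and sample, already whole. The submitters' processing notes name Bowtie2 2.2.5, RSEM 1.2.12 and build dm6, without their settings. Genes were filtered with filterByExpr (minimum count 10, minimum total 15), scaled by TMM and tested with edgeR 4.0.16 (quasi-likelihood F-test, Benjamini-Hochberg), and CPM uses the scaled library sizes. On simulated data the fit recovered 25 of 50 genes changed 1.3-fold and 38 of 50 changed 1.5-fold. It recovered 47 of 50 at 2-fold and 50 of 50 at 4-fold, and called 9 unchanged genes. Positions are 1-based from the annotation of BDGP6.54, which has dm6 coordinates, and 160 tested genes had none. Alternatives were DESeq2 1.42.0, RLE factors, library totals, other filters, robust dispersion, a stricter threshold, the replicate number as a block and leaving out each sample.

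Genes named are kdm5 and the 8 moderate rises and 8 falls with the smallest adjusted p at 10 CPM or more without overlap. Genes with a CG, CR or BGI name were left out of that ranking, and 241 of the 376 moderate calls lack such a name. Also named are up to 3 called members per list and direction and the 4 called genes highest per kilobase. The rest are 4 large rises, 4 large falls, and runs and leading pairs of neighbours. Other list members are named as examples. Genes and lists were chosen with earlier results of these data known. Strand-specific counting is not given in the sources used here.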

Additional observations from a re-analysis of the deposited data

Results flagged for a closer look

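Among 184 groups of 4 samples, 2 for each of 92 named genes, 6 had a sample far from the other 3 by Dixon's criterion, and chance alone flags about 1 group in 20. Kdm5 was low in WT replicate 3 at 664 CPM, where the others stood at 729 to 733 CPM. It was also low in L854F replicate 3 at 728 CPM, where the others stood at 784 to 793 CPM. CG15353 was high in L854F replicate 4 at 341 CPM, against 285 to 294 CPM, and Lk was high in L854F replicate 2 at 123 CPM, against 99.3 to 103 CPM. CG5835 was high in WT replicate 2 at 0.999 CPM, against 0.592 to 0.654 CPM. Su(Ste):CR41533 was high in WT replicate 4 at 13.8 CPM, against 5.68 to 6.63 CPM. Causes of these values were not tested.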

How the results depend on the processing

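At an adjusted p under 0.01, which only tightens the threshold, 212 genes were called (117 higher, 95 lower), 131 of them moderate, with 9 same-direction neighbour pairs, 31 calls on chromosome 2 and 153 on the X and chromosome 3. DESeq2 called 144 genes on chromosome 2 and 508 on the X and chromosome 3, out of 705, and the cause was not tested. Leaving out single samples, with fewer samples in each fit, gave 307 to 426 calls (172 to 226 higher, 133 to 200 lower), 208 to 305 moderate calls, 16 to 26 same-direction pairs, 43 to 81 calls on chromosome 2 and 225 to 302 on the X and chromosome 3. RLE factors, library totals, no filter, a filter of 50 counts in 4 samples and robust dispersion gave 428 to 548 calls. With library totals 239 were higher and 243 lower. The kdm5 difference ranged from 0.08 to 0.14 over all alternatives and was never called. None of the 91 called genes named by the rule changed sign under any alternative, and all 91 passed with DESeq2. Of genes named without a call, HDAC1 changed sign with library totals, and HDAC1, Set1, trr, lncRNA:roX1 and Hsp83 did in leave-one-out fits.

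Fitting replicate numbers as a block gave 514 calls, 249 of them higher and 265 lower, with 424 among the 504 reported, and the kdm5 difference was 0.1132. The numbers did not pair the samples: same-numbered samples correlated at -0.105 to 0.334 in their deviations from the group means over 7138 genes, and not every sample correlated best with its own number. The block lost the calls of CG9686, TkR99D, 5-HT2B, cry, CycB3, feo, GstO1, JMJD7, Sirt2, Eip78C and CG14995. The comparison of chromosomes was added after seeing the data.

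Depth limits low genes most: the median SE was 0.34 on the log2 scale under 2 CPM and 0.06 at 50 to 200 CPM.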
